A study of Mus musculus with 2 samples.

Results

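Aquaporins are membrane channels for water, and some of them also pass glycerol. In the kidney the hormone vasopressin controls how much water leaves the urine: it binds the V2 receptor Avpr2 on principal cells of the collecting duct, the receptor raises cAMP through a stimulatory G protein, and protein kinase A phosphorylates Aqp2, which then moves from vesicles to the apical membrane. Water taken up through Aqp2 leaves the cell on the basolateral side through Aqp3 and Aqp4. Aqp1 is the constitutive water channel of the proximal tubule, the descending thin limb and the descending vasa recta. In polycystic kidneys, whose tubules swell into fluid-filled cysts, cAMP made in response to vasopressin promotes cyst growth, which makes this receptor and its water channels of interest in a cystic kidney.

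The genes described are 10 aquaporin and vasopressin receptor genes, Aqp1, Aqp2, Aqp3, Aqp4, Aqp5, Aqp7, Aqp8, Aqp11, Avpr2 and Avpr1a, chosen by name and measured by every probe set that the deposited annotation gave to 1 of them alone. That gave 18 of the 45037 probe sets on the array, for 9 of the 10 genes. Aqp5, a water channel of secretory glands, had 1 probe set whose annotation also named another locus, so it was left out. The study set kidney RNA of a B6C3Fe a/a-bpck mutant mouse sample against that of a wild-type sample, both at postnatal day 3, an age at which nephrons are still forming. Both samples were hybridised to Affymetrix Mouse 430 2.0 chips, 1 per sample, which gave 2 arrays without replication. The labels name neither the mutated gene, nor the strain of the wild-type sample, nor the number or sex of the animals behind each RNA. With 1 array per genotype no test was possible, the variation between animals is unknown, and each difference below describes these 2 arrays only.

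Values are dChip intensities in arbitrary linear units, and a difference is log2 of the mutant value minus log2 of the wild-type value, so a positive one means higher in the mutant array. Values under the 20th percentile of all values (4.2) were raised to it before the log was taken. Probe sets with an intensity of at least 16.53, the median of all values, in one array or both were kept, and a difference of at least 1.5-fold was counted. Of the 18 probe sets, 14 were kept, for 8 genes. One of them, an Aqp7 probe set, reached the filter in the mutant array only and so had to be higher there, while the other 13 reached it in both arrays.

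The 2 arrays differed in more than the labelled genotype. Xist, the RNA of the silenced X chromosome in female cells, had an intensity of 1113 in the mutant array and 4.67 in the wild-type array, and 4 of 4 genes of the Y chromosome had lower values in mutant. Of the 4, Kdm5d (16.25 in mutant and 80.1 in wild type) reached the filter in wild type only and so had to be lower. All 9 kept genes of an adrenal list of 12 were lower in the mutant array, though each reached the filter in wild type only and so had to be lower in mutant, with a summed intensity over the 12 genes of 93.0 in mutant and 684.6 in wild type. The kidney markers Pax8, Cdh16, Lrp2, Umod and Nphs1 were above the filter in both arrays, and none of these reached 1.5-fold. Sex-linked and adrenal RNA therefore differed along with genotype, and their part in the results was not tested. In whole-kidney RNA, a change in the number of cells of a type and a change in RNA per cell cannot be told apart.

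Promoter windows of 3 genes are shown because the receptor Avpr2 and its target Aqp2 lay on opposite sides of 0, while Aqp2 and its basolateral partner Aqp3 lay on the same side. Each window runs from 250 bases before to 50 bases after a RefSeq transcription start in GRCm38.p6, 5′ to 3′ on the gene's own strand. Capitals mark the motifs searched on both strands: the cAMP response element core GACGTCA, its short form TGACG, the GATA motif GATAA and the TATA motif TATAA. The last 5 bases of the core, CGTCA, are the short form on the other strand.
Aqp2: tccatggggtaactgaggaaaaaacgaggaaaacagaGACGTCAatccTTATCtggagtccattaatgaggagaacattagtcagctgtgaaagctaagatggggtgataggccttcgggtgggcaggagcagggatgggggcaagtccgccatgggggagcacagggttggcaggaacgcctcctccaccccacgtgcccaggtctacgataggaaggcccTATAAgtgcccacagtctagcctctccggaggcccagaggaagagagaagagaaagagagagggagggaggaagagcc
Aqp3: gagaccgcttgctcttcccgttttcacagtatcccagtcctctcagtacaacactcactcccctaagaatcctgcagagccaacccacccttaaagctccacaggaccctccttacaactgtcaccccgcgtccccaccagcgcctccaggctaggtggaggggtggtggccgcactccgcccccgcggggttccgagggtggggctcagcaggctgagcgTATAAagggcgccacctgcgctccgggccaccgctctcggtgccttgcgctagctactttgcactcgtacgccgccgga
Avpr2: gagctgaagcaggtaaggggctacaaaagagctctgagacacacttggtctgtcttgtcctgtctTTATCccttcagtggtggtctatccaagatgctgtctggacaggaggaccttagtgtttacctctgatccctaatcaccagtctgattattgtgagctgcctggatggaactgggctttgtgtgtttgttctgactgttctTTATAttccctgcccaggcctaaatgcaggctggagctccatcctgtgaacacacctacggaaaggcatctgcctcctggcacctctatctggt
The Aqp2 window lies at chr15:99578806-99579105 on the + strand, the Aqp3 window at chr4:41098134-41098433 on the - strand and the Avpr2 window at chrX:73891852-73892151 on the + strand. The annotated Avpr2 gene begins at chrX:73891765, so its window lies wholly inside the gene, at a start downstream of that base. In the Aqp2 window the core GACGTCA stood at -213 to -207 from the start, a GATA motif at -202 to -198 on the other strand, and TATAA at -28 to -24. The core was present in 3.21% of the 32851 windows of this length in the table, the short form in 20.8%, the GATA motif in 25.4% and TATAA in 24.9%. In the Aqp3 window the search found TATAA at -29 to -25 and no other motif. In the Avpr2 window it found a GATA motif at -185 to -181 and a TATA motif at -44 to -40, both on the other strand. Such matches describe letters in a window and are not evidence that a factor binds there. In the same gene table Aqp2, Aqp5 and Aqp6 follow each other on chromosome 15 with no other protein-coding gene among them, and Aqp7 and Aqp3 are neighbours on chromosome 4.

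In the mutant array the V2 receptor Avpr2 and the basolateral channel Aqp4 were higher, while Aqp2, Aqp3 and the V1a receptor Avpr1a were lower by smaller amounts. Aqp1 and Aqp11 were slightly higher on every kept probe set, and the probe sets of Aqp7 disagreed. Of the 14 kept probe sets, 7 were higher and 7 lower in the mutant array, with a median difference of 0.01 and a range of -0.35 to 0.76, and this split was also 7 and 7 with array medians set equal, with quantile scaling and with loess scaling. Over all 23491 kept probe sets, 45.9% were higher and the median difference was -0.02. At least 1.5-fold higher were 3 of the 14, 1 probe set each of Avpr2, Aqp4 and Aqp7, against 2.25% of all kept probe sets. The Aqp7 probe set reached the filter in the mutant array only and could not have been lower. Among the 13 that reached it in both arrays, only those of Avpr2 and Aqp4 were 1.5-fold higher. None of the 14 was at least 1.5-fold lower, against 3.85% of all kept probe sets. Of all kept probe sets at least 1.5-fold apart, 36.9% were higher in the mutant array with values as deposited, 54.4% with array medians set equal and 50% with quantile scaling. No kept probe set of these genes reached 2-fold, a size seen in 1.27% of all kept probe sets.

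**Figure D1:**
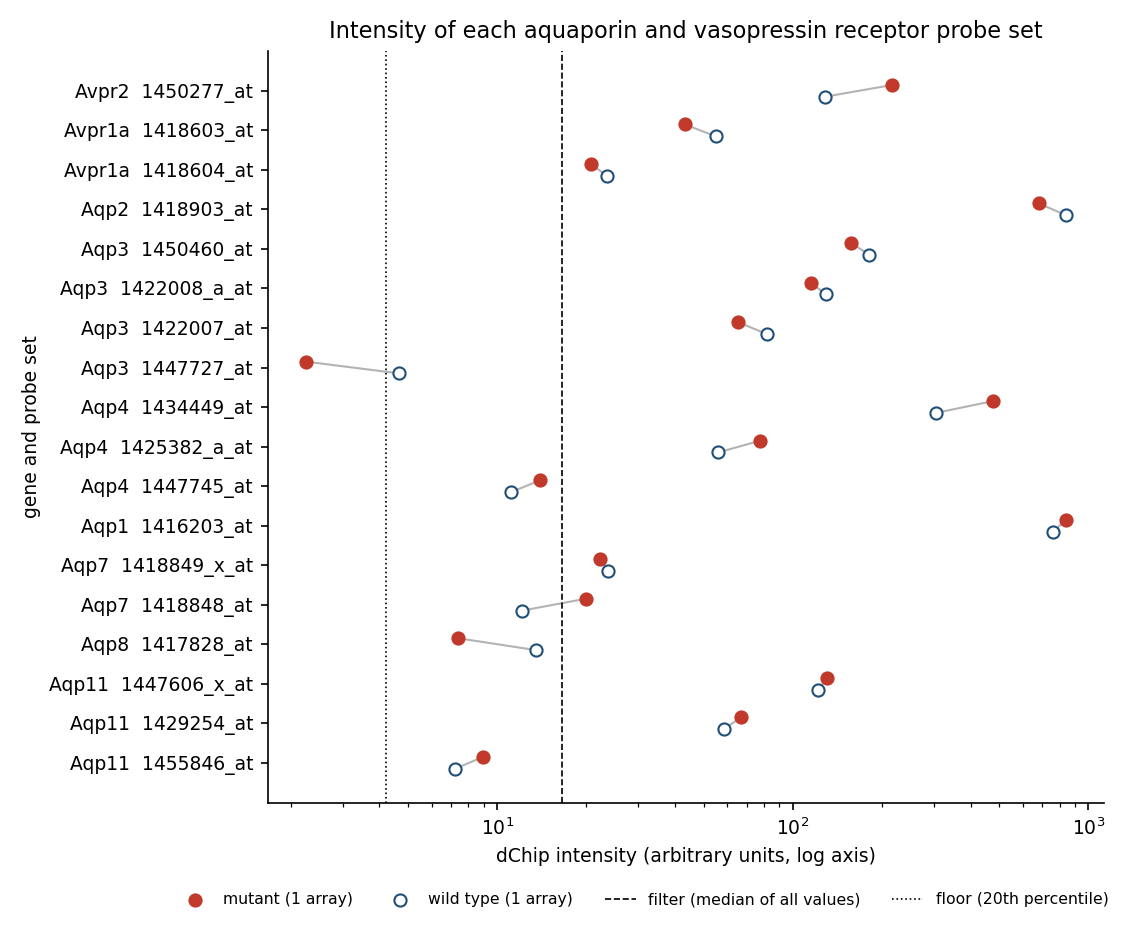
Intensity in arbitrary units (log axis) of the 18 probe sets, with filled points for the mutant array and open points for the wild-type array (1 array each, so no error bars). Avpr2 and all 3 Aqp4 probe sets lie to the right in mutant, Aqp2, all 4 Aqp3 and both Avpr1a probe sets lie to the left, and 4 probe sets stay left of the filter at 16.53 in both arrays.

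Avpr2, the receptor through which vasopressin acts on the collecting duct, was measured by probe set 1450277_at. It read 217 in the mutant array and 128 in the wild-type array, a difference of 0.76 on the log2 scale or 1.69-fold higher. Among the 23491 kept probe sets 263 (1.12%) were at least as far higher, and among the 11668 that reached the 75th percentile of intensity 56 (0.48%) were. The authors' deposited table bounds this fold at 1.64 and 1.75, from the spread of probes within the arrays and not from animals. Avpr2 lies on the X chromosome, and sex-linked transcripts differed between the arrays. The 685 kept X-linked probe sets had a median difference of -0.028, and 2.04% of them were at least 1.5-fold higher, against a median of -0.015 and 2.13% over the 20079 autosomal ones. The 3 kept probe sets of other genes nearest to it in log2 intensity over both arrays were those of Rbm28 (distance 0.03), Eprn (0.12) and Cdkn1a (0.14). With only 2 arrays behind it, that likeness amounts to a similar pair of intensities.

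Avpr1a, the vasopressin receptor that signals through calcium and is known from vascular smooth muscle and liver, went the other way on both of its probe sets. Probe set 1418603_at read 43.2 in the mutant array and 54.9 in the wild-type array, and 1418604_at read 20.7 in mutant and 23.6 in wild type. The differences were -0.35 and -0.19, neither of which reached 1.5-fold. Smooth muscle markers lay on the other side of 0, with 5 of 5 higher in the mutant array (summed intensity 3608 in mutant and 2879 in wild type) and Cnn1 1.51-fold higher. That count takes the brightest kept probe set of each gene, and the 2 kept ones of Myh11 disagreed, at 0.23 and -0.36. Intercalated cell markers were lower for 6 of 7, or 4 of 7 with array medians set equal, with a summed intensity of 1763 in mutant and 1552 in wild type, of which the 1 higher gene, Car2, gave 1092 in mutant and 752 in wild type. The adrenal list was lower as given above. Among liver genes, 4 of 6 were higher (summed intensity 2679 in mutant and 3022 in wild type). The part of these cells in the Avpr1a values was not tested.

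Aqp2, the vasopressin-regulated apical channel of the principal cell, was measured by 1418903_at alone. It read 681 in the mutant array and 843 in the wild-type array, a difference of -0.31 or 1.24-fold lower. The authors' deposited table gives bounds of -1.19 and -1.29 for its signed fold of -1.24. Of all kept probe sets 11.9% were at least as far lower, but among those that reached the 75th percentile of intensity 3.97% were. The nearest other kept probe sets over both arrays were those of Prss23 (distance 0.02), Apcdd1 (0.05) and Arl6ip1 (0.07).

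The receptor Avpr2 and its downstream channel Aqp2 thus differed in opposite directions. The Avpr2 difference exceeded that of Aqp2 by 1.07 on the log2 scale, so the mutant-to-wild-type ratio of Avpr2 was 2.1 times that of Aqp2. Avpr2 had the largest difference of the 14 kept probe sets. The contrast lay outside the planned results, and how often pairs of probe sets lie this far apart was not computed. This contrast is taken within the arrays and is not altered by multiplying an array by a constant. It was 1.075 with quantile scaling, 1.079 with loess scaling and 0.93 with a pseudocount of 32. Changing the floor, the filter or the type of probe set could not move it, because both probe sets lie above each floor and filter tried.

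Aqp3, the basolateral channel for water and glycerol, was lower in the mutant array on all 4 of its probe sets, 3 of them kept. Probe set 1450460_at read 158 in mutant and 182 in wild type, and 1422008_a_at read 115 in mutant and 129.6 in wild type. The third, 1422007_at, read 65.1 in mutant and 81.6 in wild type. The kept differences of -0.20, -0.17 and -0.32 had a mean of -0.23 ± 0.08 (SD over 3 probe sets of the same 2 samples, which holds no variation between animals). The other, 1447727_at, stayed below the filter, with 2.25 in mutant, under the floor, and 4.67 in wild type. The Aqp3 probe sets thus shared a direction, and none of them reached 1.5-fold.

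Aqp4, the other basolateral water channel of the principal cell, was higher in the mutant array on all 3 of its probe sets. The brightest, 1434449_at, read 476 in mutant and 305 in wild type, a difference of 0.64 or 1.56-fold. Only 1.79% of kept probe sets, and 0.78% of those that reached the 75th percentile, were at least as far higher. Probe set 1425382_a_at read 77.7 in mutant and 56.0 in wild type, 1.39-fold higher, and 1447745_at, below the filter, read 14.0 in mutant and 11.2 in wild type. Over both kept probe sets the mean difference was 0.56 ± 0.12 (SD over 2 probe sets). The 2 basolateral channels, Aqp3 and Aqp4, therefore lay on opposite sides of 0 on every probe set.

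The header of the authors' deposited table names a lower bound of the fold above 1.5 and a difference in intensity above 20 as criteria. Probe sets 1450277_at of Avpr2 and 1434449_at of Aqp4 were the 2 of 18 that met both, against 0.568% of all 45037 probe sets. Their differences in intensity in that table were 89.1 and 171.5. The lower bounds were 1.64 for Avpr2 and 1.53 for Aqp4, so the Aqp4 probe set passed narrowly.

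**Figure D2:**
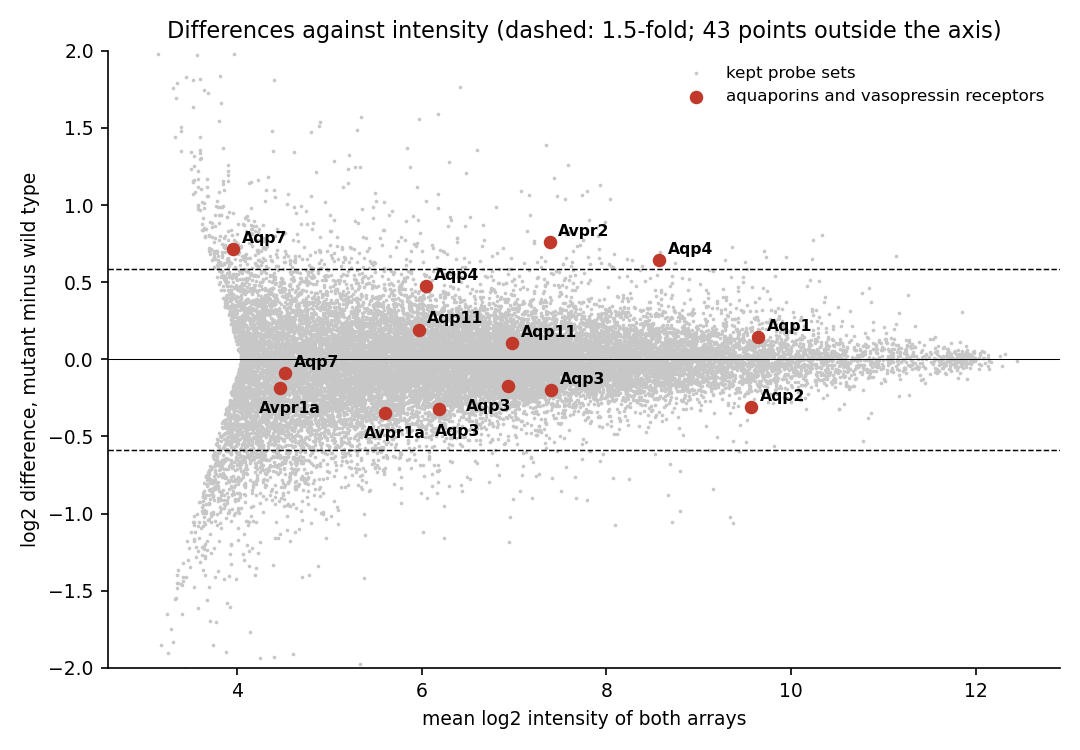
Log2 difference, mutant minus wild type, against mean log2 intensity for the 23491 kept probe sets (grey) and the 14 of aquaporins and vasopressin receptors (red). Avpr2 and the brighter Aqp4 probe set lie above the 1.5-fold line where few grey points do, while the Aqp7 point above the line lies at the dim edge, where the spread is widest.

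Aqp1, the constitutive water channel of the proximal tubule and thin limb, was measured by 1416203_at. It read 841 in the mutant array and 762 in the wild-type array, a difference of 0.14 or 1.10-fold higher, and 21.0% of kept probe sets were at least as far higher. Proximal tubule markers were higher for 7 of 10 (summed intensity 9145 in mutant and 8200 in wild type). Endothelial markers, relevant because vasa recta also carry Aqp1, were lower for 5 of 6 (1612 in mutant and 1796 in wild type). Red blood cells carry Aqp1 as well, and the erythroid list of 7 genes summed to 169.7 in mutant and 225.4 in wild type over 5 measured genes. Only 2 of these were kept, and they split: Alas2 read 113 in mutant and 172 in wild type, 1.52-fold lower, while Hba-a1 read 32.8 in mutant and 28.2 in wild type, a difference of 0.22. The part of each cell type in the Aqp1 value was not tested.

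Aqp7, a glycerol channel of the late proximal tubule and of fat cells, gave no single direction. Probe set 1418848_at read 19.97 in the mutant array and 12.2 in the wild-type array, 1.64-fold higher. Probe set 1418849_x_at, annotated with the same accession, read 22.3 in mutant and 23.8 in wild type, 1.06-fold lower. The SD between these differences was 0.57, while over the 5269 genes with several kept probe sets it was 0.13 at the median and 0.47 at the 95th percentile. With a pseudocount of 32 in place of the floor the larger difference shrank to 0.23, below 1.5-fold. Among the 3 kept fat genes, Adipoq was lower (45.65 in mutant and 59.75 in wild type). Fabp4 was 1.05-fold lower (2050 in mutant and 2151 in wild type). Ucp1, the uncoupling protein of brown fat, was 3.39-fold higher. With array medians set equal 2 of the 3 fat genes were higher, with a median of 0.004. The part of fat in the Aqp7 values was not tested.

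Aqp11, an unorthodox aquaporin of the endoplasmic reticulum whose loss gives mice polycystic kidneys, was slightly higher in the mutant array on all 3 probe sets. Probe set 1447606_x_at read 131 in mutant and 122 in wild type, and 1429254_at read 66.85 in mutant and 58.5 in wild type. Their mean difference was 0.15 ± 0.06 (SD over 2 probe sets), and 15.9% of kept probe sets were at least as far higher as the larger of them. Probe set 1455846_at stayed below the filter, with 8.99 in mutant and 7.22 in wild type.

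Aqp8, a channel for water and hydrogen peroxide known from liver, pancreas and gut, did not pass the filter. Its probe set 1417828_at read 7.38 in the mutant array and 13.5 in the wild-type array, 1.83-fold lower. That difference of -0.87 became -0.41 with the floor at the 40th percentile and -0.21 with a pseudocount of 32. Over all 45037 probe sets, dim ones included, 7.58% were at least 1.5-fold lower and 5.16% at least 1.5-fold higher.

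Genes that act with these channels stayed under 1.5-fold. None of the 56 kept genes in 5 related lists was at least 1.5-fold apart, where 2.25% of kept probe sets were at least 1.5-fold higher and 3.85% lower. Each gene was represented by its brightest kept probe set, while these shares cover every kept probe set, so the comparison is not like for like. In the list of vasopressin and cAMP signalling, from the G protein Gnas through adenylyl cyclases to protein kinase A, phosphodiesterases and arrestins, 7 of 18 kept genes were higher in the mutant array and 11 were lower. Of the 11, Pde4a (14.7 in mutant and 16.7 in wild type) reached the filter in the wild-type array only and so had to be lower. The median difference of the 18 was -0.09. With array medians set equal 8 of 17 kept genes of this list were higher and the median was -0.00. Crem, a cAMP-responsive transcription factor, read 44.0 in the mutant array and 33.5 in the wild-type array, but its 3 kept probe sets ranged from -0.58 to 0.39. Pde1a, a calcium-activated phosphodiesterase, read 60.01 in mutant and 71.0 in wild type. Adcy6, the main vasopressin-responsive cyclase of the collecting duct, read 199 in mutant and 185 in wild type, a difference of 0.10.

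Genes that carry Aqp2 vesicles to and from the membrane were higher for 11 of 18, with a median of 0.04 (14 of 18 and 0.11 with array medians set equal). Rab27a, a small GTPase of secretory vesicles, read 30.7 in mutant and 39.4 in wild type, and Vta1, which takes part in multivesicular body sorting, read 244 in mutant and 211 in wild type. Transcription factors known to act on Aqp2 or on principal cell identity were higher for 10 of 11, or 9 of 11 with quantile scaling, with a median of 0.17. Elf5, an epithelial factor of the principal cell, read 213 in mutant and 144 in wild type, 1.49-fold higher. Grhl2 read 96.6 in mutant and 77.2 in wild type and Gata3 read 430.3 in mutant and 349 in wild type, while Aqp2 itself was on the other side of 0.

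Urea transport and osmolyte genes, which serve the hypertonic medulla, were lower for 4 of 5 kept genes, with a median of -0.25. Slc5a3, the myo-inositol transporter, read 461 in mutant and 551 in wild type, its 2 probe sets lying at -0.26 and -0.025. Akr1b3, the aldose reductase that makes sorbitol, read 1001 in mutant and 1188 in wild type, and its 3 kept probe sets ranged from -0.25 to -0.21. Slc14a2, the vasopressin-responsive urea transporter of the collecting duct and thin limb, read 47.0 in mutant and 55.0 in wild type, a difference of -0.23.

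Principal cell genes outside the aquaporins and Avpr2 were higher for 7 of 8, with a median of 0.22, and the count was the same under each scaling tried. Of the 7, Scnn1a (20.6 in mutant and 15.9 in wild type) reached the filter in the mutant array only and so had to be higher. Fxyd4, a regulator of the sodium pump, read 568 in the mutant array and 396 in the wild-type array, 1.43-fold higher. Scnn1g, a subunit of the epithelial sodium channel, read 244 in mutant and 188 in wild type, 1.30-fold higher. The exception was the potassium channel gene Kcnj1, with 298 in mutant and 359 in wild type. Avpr2 and Aqp4 therefore lay on the same side of 0 as most other principal cell genes, and Aqp2 and Aqp3 on the other. Of the 7 kept intercalated cell genes, Slc26a4 and Slc4a1 were 1.76-fold and 1.60-fold lower in the mutant array. The rest stayed under 1.5-fold, with differences from -0.20 (Slc4a9) to 0.54 (Car2).

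**Figure D3:**
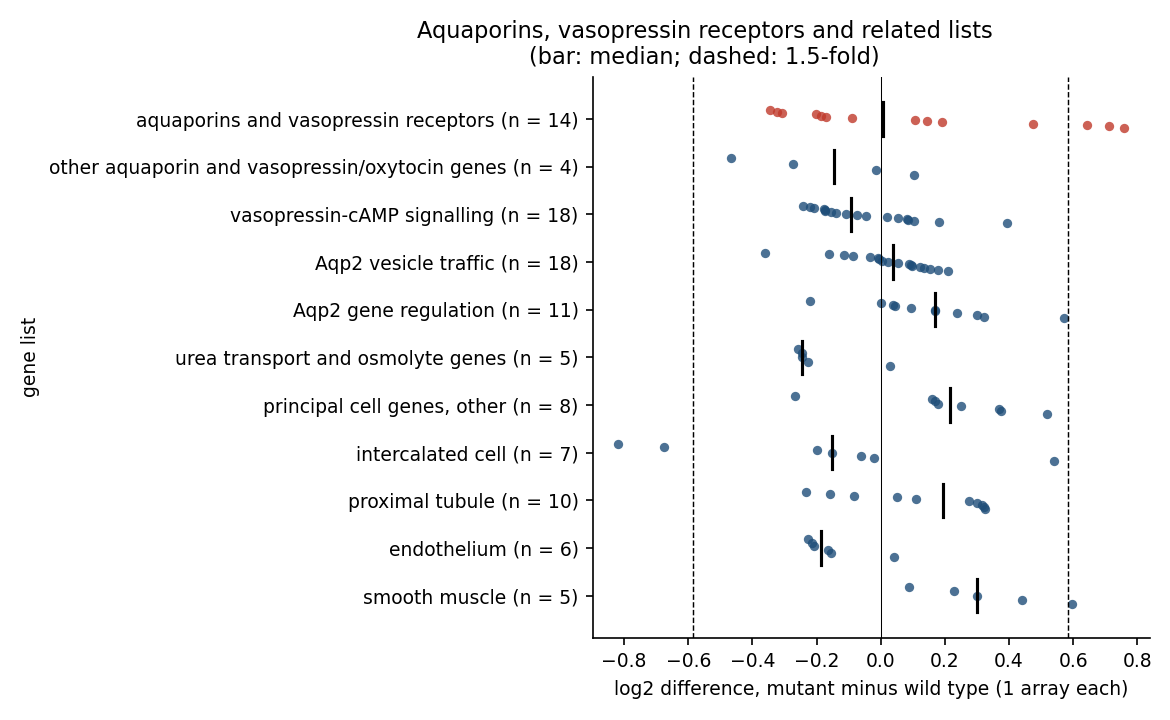
Log2 differences, mutant minus wild type, of the 14 kept aquaporin and vasopressin receptor probe sets (red) and of the kept genes of 10 related lists (blue, 1 probe set per gene), with a bar at each median. The red points spread from -0.35 to 0.76, while no gene of the 5 pathway lists reaches the 1.5-fold lines.

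**Figure D4:**
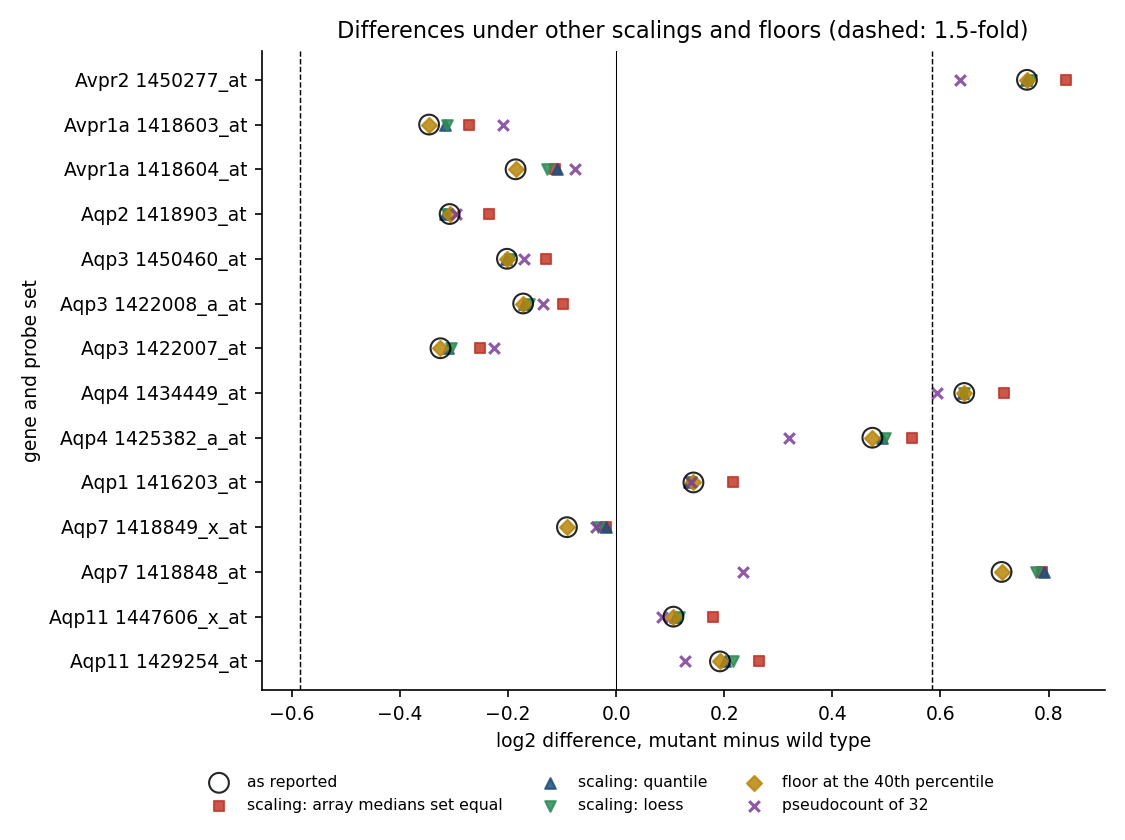
Log2 differences, mutant minus wild type, of the 14 kept probe sets with values as reported (open circles), under 3 scalings, a higher floor and a pseudocount of 32. Every probe set keeps its side of 0 under these 5 alternatives, and the Aqp7 probe set 1418848_at drops below the 1.5-fold line with the pseudocount.

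The plot of settings shows how the differences depend on scaling. With array medians set equal every difference moved up by about 0.07, so that Avpr2 reached 0.83 and Aqp2 -0.23. With quantile scaling the Aqp7 probe set 1418848_at (0.79) passed Avpr2 (0.76), and with loess scaling it lay at 0.78 against 0.77. Avpr2 and the brighter Aqp4 probe set stayed above 1.5-fold under each alternative that changed the values, the lowest differences being 0.64 and 0.59.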

How the data were processed

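Kidney RNA of 1 mutant and 1 wild-type sample was read on Affymetrix Mouse 430 2.0 arrays, per the labels, and 100 ng of total RNA was labelled with biotin. Deposited values are intensity, a linear expression index that the authors computed in dChip (December 2010 version), per the series' design text. Per the file headers, control probe sets were omitted. How background was subtracted and arrays were normalized is not given in the sources used, and dim ratios depend on them. The deposited signed fold and its bounds are a score of mutant over wild type, negative where wild type is higher. The table's last line counts 354 genes past the authors' criteria, while its rounded columns gave 256 probe sets.

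Both deposited files held equal intensities in 45037 probe sets. Probe sets with 1 gene (37579) were used for lists, with symbols updated by a RefSeq table where it held them (34316). Intensities were not rescaled. The floor, filter and fold are those given with the results, and a listed gene was represented by its brightest kept probe set. The precision is limited by the number of arrays. Named genes were every probe set of the 10 genes, list genes at least 1.5-fold apart or else the 2 farthest, and the 3 nearest probe sets to Avpr2 and Aqp2. Adcy6, Gata3, Slc14a2, Kcnj1, Car2, Adipoq, Fabp4, Scnn1a, Pde4a, Myh11 and Slc4a9 were named after their values were seen. Genes and lists were chosen with earlier results of these data known. Further lists stood for the loop of Henle, skeletal muscle and exocrine glands. Alternatives covered scaling, floor, filter, probe set type, gene averaging and fold. A result on 1 listed marker gene is not reported here. The processing was tested on simulated data. Python 3.11.15, numpy 2.4.6, pandas 2.3.3, statsmodels 0.14.6 and matplotlib 3.10.9 were used.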

Additional observations from a re-analysis of the deposited data

How the results depend on the processing

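The median difference of the 14 kept probe sets was 0.01 as reported and 0.15 when the kept probe sets of each gene were averaged first. The count at least 1.5-fold higher was 3, and it was 0 when 2-fold was required, by construction. The count at least 1.5-fold lower was 0. It was 1 without a filter, where Aqp8 entered, and 2 at the lowest fold tried. The median of the other aquaporin and vasopressin or oxytocin genes was -0.14 over 4 kept genes and -0.35 with no filter, where dim genes entered. Setting array medians equal shifted the median of all kept probe sets by 0.08. No called difference changed sign under any alternative, but floors, filters, folds and the pseudocount cannot change a sign. Only a scaling could, and a called difference of 1.5-fold is large beside the shift of 0.08. Values of the series matrix gave the same results, being equal. No paired analysis was possible because each group has 1 array, and for the same reason no replicate could be left out. The error bounds in the deposited table come from probes within an array.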

Other observations

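Among the aquaporin and neurohypophyseal genes outside the 10 described, Aqp6, an anion-conducting aquaporin of intercalated cell vesicles, was lower in the mutant array on its 3 kept probe sets. The brightest, 1441978_at, read 104.0 in mutant and 125.7 in wild type, a difference of -0.27, and the other kept ones lay at -0.12 and -0.27. The last of these, 1459982_a_at (16.47 in mutant and 19.85 in wild type), reached the filter in the wild-type array only and so had to be lower. The remaining Aqp6 probe set, 1420035_at, stayed below the filter and read 11.1 in mutant and 4.37 in wild type, in the opposite direction. Aqp12, a channel known from pancreatic acinar cells, read 40.45 in mutant and 55.95 in wild type, a difference of -0.47. Aqp9, a glycerol channel of liver, stayed below the filter on both probe sets, as did the lens channel Mip. The hormone gene Avp read 6.65 in mutant and 9.23 in wild type and the receptor Avpr1b read 4.86 in mutant and 2.37 in wild type, all below the filter. Oxtr, the oxytocin receptor, read 22.4 in mutant and 20.8 in wild type, a difference of 0.10.

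The remaining cell type lists gave the following values. In the adrenal list Hsd3b1, Chga, Cyp11b1 and Scg2 were at least 48.7-fold, 22.4-fold, 7.01-fold and 6.70-fold lower in the mutant array, against values under the floor there. Chgb read 4.51 in mutant, close to the floor, and 215.9 in wild type, so no fold is given. Th read 8.06 in mutant and 18.8 in wild type and Star 14.8 in mutant and 25.6 in wild type, both below the filter in mutant. The Y-linked genes Kdm5d, Uty, Ddx3y and Eif2s3y were 4.93-fold, 4.88-fold, 4.67-fold and 4.38-fold lower. Of the liver genes, Cyp2e1, Alb and Apoa1 were 2.86-fold, 2.56-fold and 1.58-fold higher and Serpina1a was 1.70-fold lower. Loop of Henle genes were higher for 3 of 6, with Bsnd at -0.45 and Epcam at 0.23 on the log2 scale. Cubn and Slc34a1 of the proximal tubule lay at 0.33 and 0.32, and the endothelial genes Cdh5 and Tek at -0.23 and -0.22. The kept genes of skeletal muscle, Acta1 and Des, lay at 0.04 and 0.01, and those of exocrine glands, Pnlip and Prss2, at 0.16 and -0.12.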
